A study of Mus musculus with 32 samples.

Results

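Expression of 9 genes of hematopoietic stem and progenitor cells was read in 32 mouse arrays of 7 groups: the surface molecules Kit, Cd34 and Spn, and the transcriptional regulators Meis1, Hoxa9, Lmo2, Gata2, Erg and Myb. The members were the probesets whose platform symbol is exactly 1 of these names, and each gene had a single probeset, so 9 of 28944 probesets were taken and all 9 were tested with no filter on dim values. The arrays are divided here into a leukemia experiment and a second experiment, which no label states. The leukemia experiment held leukemic bone marrow of 6 Pax5+/-;Myd88+/- mice and 6 Pax5+/- mice, and 4 samples of proB and preB cells sorted from healthy WT marrow as B220low IgM- cells. The second experiment held B220+ marrow cells, called proB cells here, of healthy mice, with 4 samples each of the Pax5+/-;Myd88-/-, Pax5+/-;Myd88+/-, Pax5+/- and WT genotypes. Pax5 encodes the factor that commits cells to the B lineage, and Myd88 the adaptor of most Toll-like receptors. Mice lacking 1 Pax5 allele were crossed with Myd88 mutants, and per the labels all animals left specific pathogen-free housing for a facility with common pathogens at 2 months. The study's methods describe the WT, Pax5+/- and Pax5+/-;Myd88+/- proB cells as cultures, grown with interleukin 7 on ST2 stromal feeder cells. Per the methods the donors were only weeks old, younger than 2 months, so methods and labels differ on whether they had been moved. No such culture of the Pax5+/-;Myd88-/- genotype is described, while the labels of all 4 genotypes name cells separated by magnetic beads. The labels of the leukemic marrow name no sort, so that these samples can hold any marrow cell. Every array is labelled a biological replicate, but nothing states that the proB samples were separate cultures, so p-values measure the spread between these samples.

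Blood stem cells and early progenitors are known by Kit, the receptor tyrosine kinase for stem cell factor, and by Cd34, a sialomucin of the cell surface. Cd34 is also made by endothelium, and Kit also by mast cells. Spn encodes CD43, which early B cells carry until the preB stage. Within the nucleus Gata2, Erg and the bridging protein Lmo2 act on shared enhancers with Tal1, Lyl1, Runx1 and Fli1, and Meis1 binds DNA together with Hoxa9 and Pbx proteins. Myb is required in stem cells and again in proB cells. In committed B cells Pax5 represses genes of other fates.

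Upstream sequence is shown for Kit, Cd34 and Myb, the members called in more than 1 comparison. Each line gives the 250 bases before the outermost annotated start of the gene, 5′ to 3′ on the gene's strand, from RefSeq on GRCm38.p6, and capitals mark matches to the motifs searched on both strands. The windows are chr5:75574737-75574986 (plus strand) for Kit, chr1:194938571-194938820 (plus) for Cd34 and chr10:21160985-21161234 (minus) for Myb.
Kit: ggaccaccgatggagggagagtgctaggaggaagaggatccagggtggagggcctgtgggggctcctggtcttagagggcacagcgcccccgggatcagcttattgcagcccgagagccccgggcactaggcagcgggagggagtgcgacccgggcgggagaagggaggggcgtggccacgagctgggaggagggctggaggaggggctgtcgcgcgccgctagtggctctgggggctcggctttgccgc
Cd34: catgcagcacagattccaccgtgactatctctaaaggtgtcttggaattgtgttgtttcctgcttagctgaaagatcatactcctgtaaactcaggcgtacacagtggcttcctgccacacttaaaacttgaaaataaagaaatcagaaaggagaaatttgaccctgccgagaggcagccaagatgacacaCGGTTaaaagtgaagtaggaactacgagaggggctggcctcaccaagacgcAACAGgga
Myb: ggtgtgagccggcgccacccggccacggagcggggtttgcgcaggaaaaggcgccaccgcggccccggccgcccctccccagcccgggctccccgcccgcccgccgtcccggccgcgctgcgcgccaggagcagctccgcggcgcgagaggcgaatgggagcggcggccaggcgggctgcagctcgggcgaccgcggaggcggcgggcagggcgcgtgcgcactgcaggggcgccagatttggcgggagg
The letters searched were AGATAA for the Gata factors, CCGGAAGT for the Ets family, to which Erg belongs, AACNG for Myb, TGACAG for Meis proteins, TGATTNAT for Hox with Pbx proteins and CANNTG, the E-box of Tal1, Lyl1 and E proteins. The Myb letters are short and can overlap each other. Kit's window holds none of them and 70.8% G and C. Cd34's holds 2 matches to the Myb letters, at -59 to -55 and -8 to -4 from the start, and 46.4% G and C. Myb's own window holds none of the motifs and 81.2% G and C. Of 32851 such windows over the genome, 9.99% hold the Gata, 2.88% the Ets, 74.2% the Myb, 15.9% the Meis, 2.82% the Hox with Pbx and 66.2% the E-box letters. The median window has 52.4% G and C. Windows were found for 8 of the 9 members, all but Lmo2. A match is a description of letters only.

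All values are log2 intensities that the authors summarized by gene-level RMA, so 1 unit is a 2-fold difference, and a probeset's level is compared between samples only, never with that of another gene. Array medians lay between 6.88 and 7.03. Arrays of a group correlated at 0.9666 to 0.9905 in the leukemias and at 0.9906 or more elsewhere. The mean of 15 B-lineage markers lay at 9.32 to 11.15 among Pax5+/-;Myd88+/- leukemias, 8.72 to 11.08 among Pax5+/- leukemias, 11.42 to 11.65 in the sorted WT cells and 10.56 to 11.27 in the proB cells. Myd88 averaged 8.83 ± 0.43 in Pax5+/-;Myd88+/- leukemias and 10.13 ± 0.19 in Pax5+/- leukemias (SD, n = 6 each), and 7.32 ± 0.19 in Pax5+/-;Myd88-/- and 9.46 ± 0.19 in WT proB cells (SD, n = 4 each). WT proB arrays 1 and 3 resembled each other (r = 0.9982), as did arrays 2 and 4 (r = 0.9979), against 0.9906 to 0.9912 for the other pairs. In all 4 proB genotypes the mean of 8 stromal markers was higher in arrays 1 and 3 than in arrays 2 and 4: 7.53 and 7.61 against 7.33 and 7.30 in Pax5+/-;Myd88-/-, 8.04 and 8.01 against 7.39 and 7.40 in Pax5+/-;Myd88+/-, 8.38 and 8.40 against 7.30 and 7.30 in Pax5+/-, and 8.32 and 8.28 against 7.70 and 7.70 in WT proB cells. It was 6.61 to 6.73 in the sorted WT cells. Xist, transcribed in female cells, was 12.29 or more in the Pax5+/-;Myd88-/- and Pax5+/-;Myd88+/- proB samples and 6.11 or less in the Pax5+/- and WT proB samples, so sex and genotype cannot be told apart between these pairs. The other groups were unbalanced too. Xist was 12.49 or more in 3 and 6.04 or less in 3 of the Pax5+/-;Myd88+/- leukemias, 9.72 in 1 and 5.44 to 5.74 in 5 of the Pax5+/- leukemias, and 12.23 to 12.46 in all 4 sorted WT samples. Sex thus went with the groups in WT proB against sorted WT cells, and in part in the comparisons of leukemias, and its part in those values was not tested. No member lies on a sex chromosome.

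**Figure D1:**
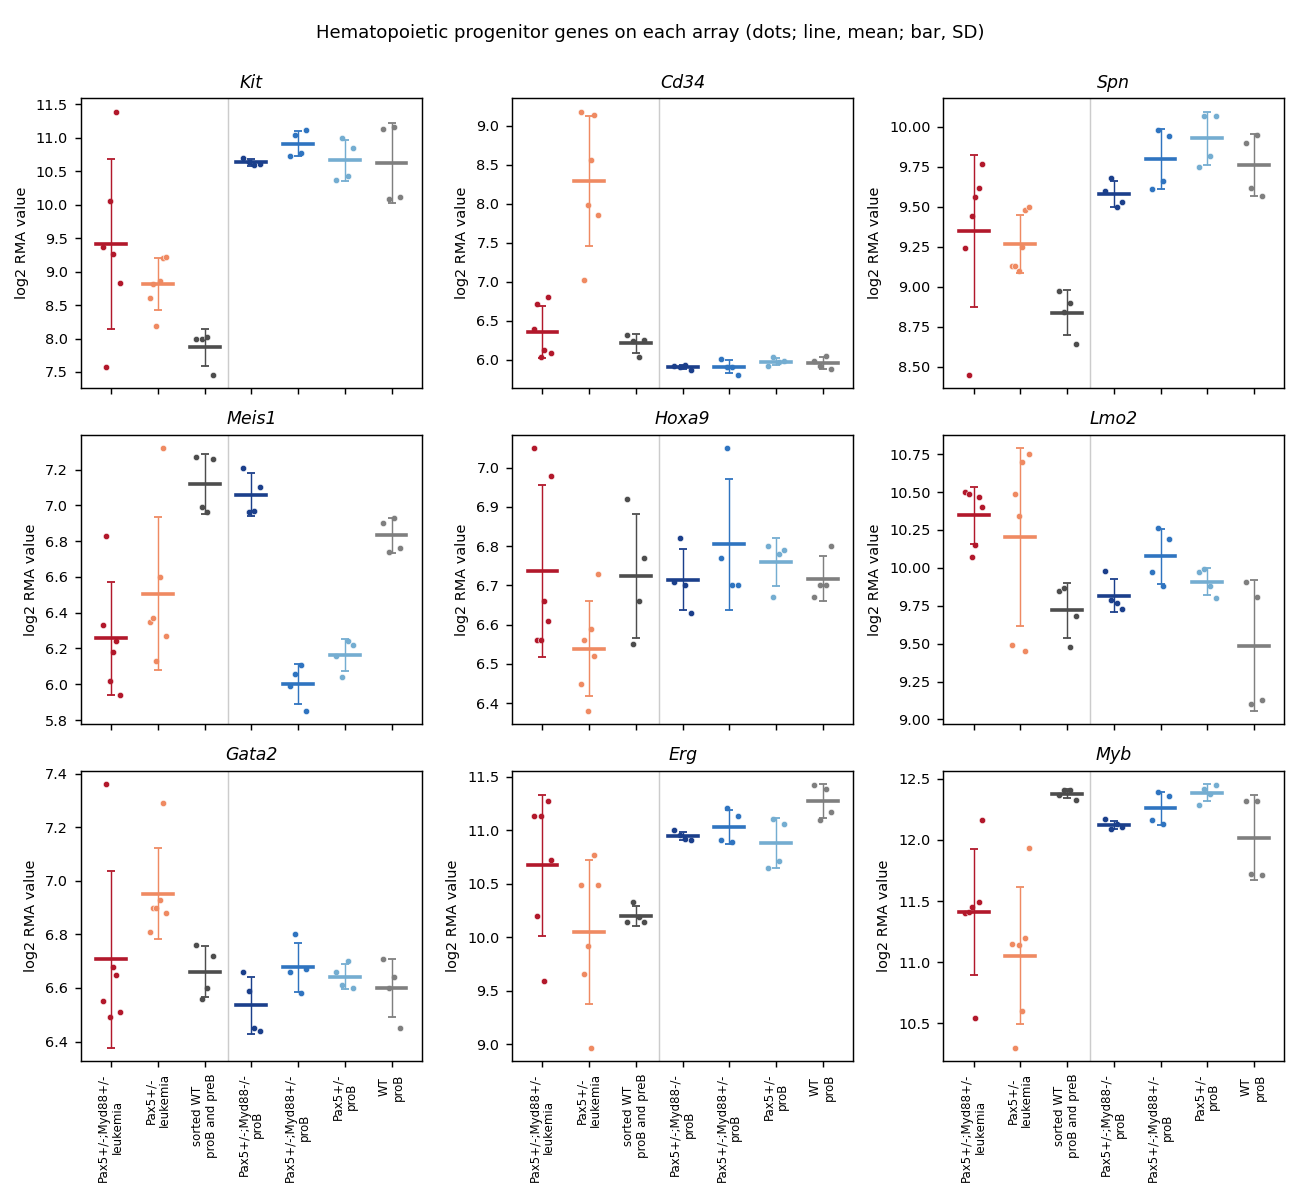
Log2 RMA value (vertical axis) of each of the 9 genes on each array, in 7 groups (horizontal axis), with dots for arrays, a line for the mean and a bar for the SD. Cd34 stands out in the Pax5+/- leukemias (7.02 to 9.18), Kit is higher in the 16 proB arrays than in the sorted WT cells (7.46 to 8.02), and Meis1 splits the proB genotypes into pairs.

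The first question was how the genes stand in leukemic marrow against normal precursors. Calls required an absolute log2 difference over 1 together with an adjusted p under 0.05 (limma, Benjamini-Hochberg over all probesets). Of the 9 members 1 was called in the Pax5+/-;Myd88+/- leukemias, Kit, which was higher, where 7.63% of all probesets were called. The Pax5+/- leukemias had 2 of 9 called, Cd34 higher and Myb lower, against 4.44% of all. At an adjusted p under 0.05 alone, 3 of 9 members passed in each genotype, where 30.9% and 24.5% of all probesets did, so by this rule the members' share was near the background. The median difference of the members was 0.15 for Pax5+/-;Myd88+/- and 0.29 for Pax5+/- leukemias, beside -0.01 and -0.03 over all probesets.

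Kit read 9.37, 7.58, 10.05, 9.26, 11.39 and 8.83 in the Pax5+/-;Myd88+/- leukemias (lowest 7.58, median 9.32, highest 11.39) and 8.0, 8.0, 8.02 and 7.46 in the sorted WT cells. In 5 of 6 leukemias it was above every WT sample, and leukemia 2 lay inside the WT range. The difference was 1.54 ± 0.50 (SE), or 2.91-fold (adjusted p = 0.0283). The call rested on single arrays: without leukemia 3, or without any of the 4 WT arrays, the adjusted p was 0.0537 to 0.0811. With only these 2 groups in the fit it was 0.0686, and no member was then called. Among Pax5+/- leukemias Kit was 8.61, 8.82, 8.18, 8.86, 9.21 and 9.22, above every WT sample, but the difference of 0.95 did not pass (95% CI -0.12 to 2.01, adjusted p = 0.182). The spread of Kit among the leukemias was wide with 1 Myd88 allele (SD 1.27) and narrow with both (SD 0.39). The mean of 8 mast cell and basophil markers was 5.52 in the leukemia with the highest Kit, Pax5+/-;Myd88+/- sample 5. Over all leukemias it was 5.44 to 6.95, against 5.69 to 6.11 in the WT cells. The part of mast cells in the Kit values was not tested. Kitl, which encodes the ligand of Kit, was higher in the Pax5+/- leukemias (6.92 ± 0.66, SD, n = 6) than in the sorted WT cells (5.18 ± 0.08, n = 4), by 1.74 (adjusted p = 0.0126).

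Cd34 read 9.18, 7.02, 7.98, 8.56, 9.14 and 7.85 in the Pax5+/- leukemias, against 6.32, 6.24, 6.04 and 6.25 in the sorted WT cells. The groups did not overlap, and the difference was 2.08 ± 0.34 (SE), or 4.22-fold (adjusted p = 0.000446). In the Pax5+/-;Myd88+/- leukemias Cd34 was 6.39, 6.71, 6.04, 6.13, 6.81 and 6.09. These values overlapped those of the WT cells, and the difference of 0.15 did not pass (95% CI -0.57 to 0.87, adjusted p = 0.782).

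**Figure D2:**
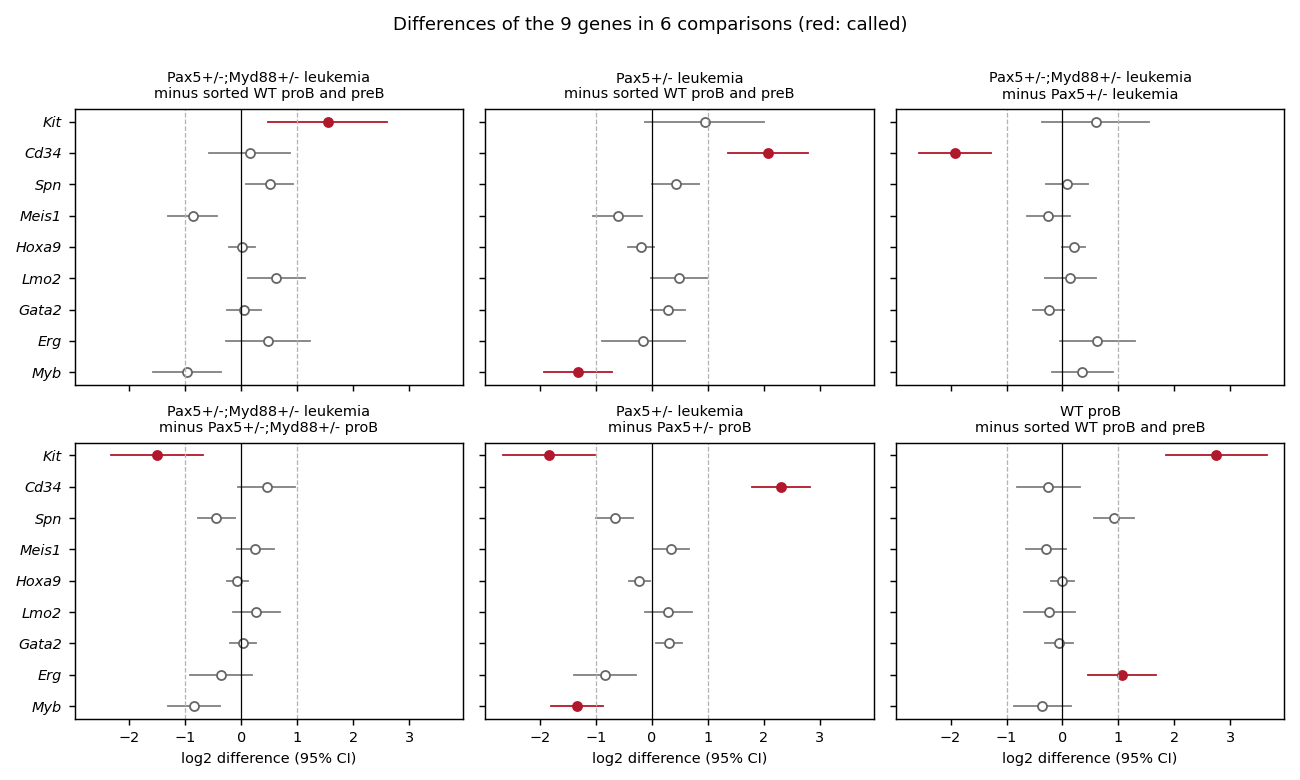
Log2 difference (horizontal axis, with 95% confidence interval) of each gene (vertical axis) in 6 comparisons, with called genes filled in red and dashed lines at 1 and -1. Cd34 is called in 3 of the 6 panels, higher by 2.08 and 2.31 and lower by -1.93, and Kit in 4, in opposite directions for leukemias against sorted and against proB cells.

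Between the leukemia genotypes, Cd34 was the 1 member of 9 that passed, by either rule. It averaged 6.36 ± 0.33 in Pax5+/-;Myd88+/- leukemias and 8.29 ± 0.84 in Pax5+/- leukemias (SD, n = 6 each). All 6 leukemias with 1 Myd88 allele lay below all 6 with both, and the mean of the Pax5+/-;Myd88+/- leukemias was 26.3% of that of the Pax5+/- leukemias (log2 difference -1.93 ± 0.30, SE, adjusted p = 0.000176). Of all probesets, 3.81% were called in this comparison and 34.4% passed the adjusted p alone. The Cd34 call was kept in each of the 21 alternative analyses. Among leukemias with Xist at 6.04 or less, the 3 with 1 Myd88 allele had Cd34 at 6.39, 6.04 and 6.81. The 5 with both alleles had it at 7.02 to 9.14. Since the whole groups already lay apart, no choice of samples could overlap, and the part of sex was not tested. Kit differed by 0.60 (95% CI -0.36 to 1.55, adjusted p = 0.323) and Erg by 0.62 (95% CI -0.05 to 1.29, adjusted p = 0.140), so neither passed, and the interval for Kit includes differences of over 1 unit.

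Markers of endothelium differed between the same groups. The mean of 8 endothelial markers was 7.72, 8.36, 6.86, 6.91, 8.02 and 6.94 for Pax5+/-;Myd88+/- leukemias, 8.70, 7.59, 8.23, 8.24, 8.73 and 8.07 for Pax5+/- leukemias, and 6.75 to 6.87 in the sorted WT cells. Of the 8 markers, 6 were called higher in the Pax5+/- leukemias than in the WT cells, and 2 were called lower in the Pax5+/-;Myd88+/- than in the Pax5+/- leukemias. The genes whose pattern over the 32 arrays was most like that of Cd34 were Emcn (r = 0.96), a sialomucin of venous and sinusoidal endothelium, Slco2a1 (r = 0.96), a prostaglandin transporter, and Gpr182 (r = 0.96), a receptor of endothelium. Emcn itself is on the endothelial list and averaged 6.19 ± 0.91 over Pax5+/-;Myd88+/- leukemias and 8.32 ± 0.73 over Pax5+/- leukemias, with 5.48 ± 0.14 in sorted WT cells. These 3 genes were picked for their likeness to Cd34 over the same arrays, so their values are no separate evidence. The 3 of 6 Pax5+/-;Myd88+/- leukemias with a list mean of 7.59 or more, the lowest value among the Pax5+/- leukemias, had Cd34 at 6.39 to 6.81. The others, leukemias 3, 4 and 6, had Cd34 at 6.04 to 6.13. Because the genotypes did not overlap in Cd34, any such choice lay below the 7.02 of the lowest Pax5+/- leukemia. Markers of other marrow cells moved with the same groups. The mean of 8 stromal markers was 7.32 to 9.90 in Pax5+/-;Myd88+/- leukemias and 8.16 to 9.12 in Pax5+/- leukemias, above the sorted WT cells, with 5 and 6 of the 8 called higher than in WT. Between the leukemia genotypes 2 stromal markers were called lower with 1 Myd88 allele, Vcam1 (-1.64, adjusted p = 0.0255) and Sparc (-1.48, adjusted p = 0.0384). Of 6 megakaryocyte and platelet markers 2 were also called lower, with a median difference of -1.27 beside 0.01 over all probesets. The same Pax5+/-;Myd88+/- leukemias, 2 and 5, reached the Pax5+/- range of the stromal list and of the megakaryocyte list. Their Cd34, at 6.71 and 6.81, was the highest of their group, and here too the choice could give no value in the Pax5+/- range. How far RNA of these cells carries the Cd34 values was not tested. In such mixed marrow, fewer cells of a type and less RNA per cell cannot be told apart.

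**Figure D3:**
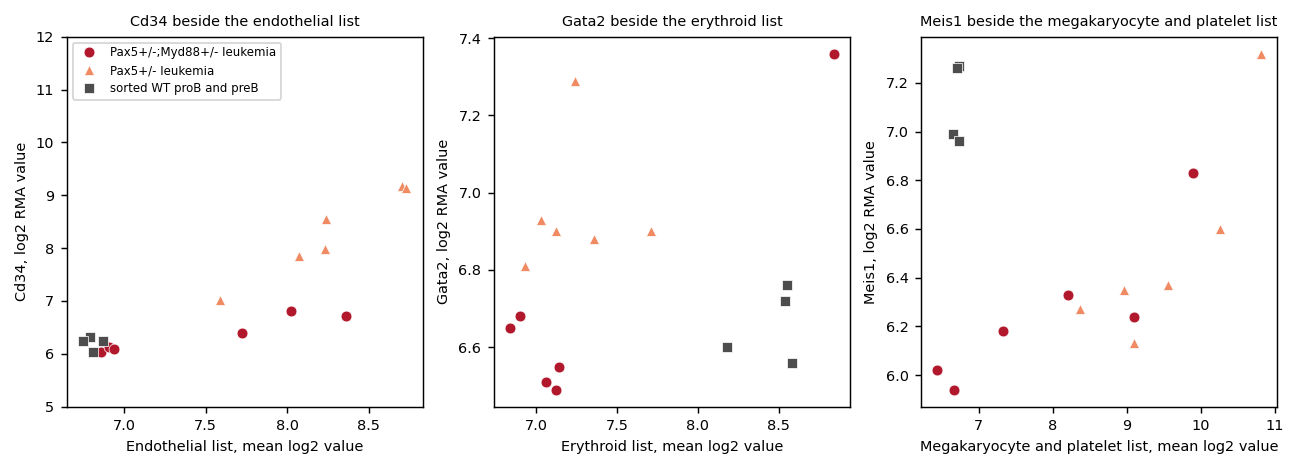
Log2 value of Cd34, Gata2 and Meis1 (vertical axes) against the mean log2 value of a marker list (horizontal axes) in the 12 leukemias and 4 sorted WT samples, 1 point per array. Cd34 is highest where the endothelial list is highest (9.18 at 8.70 and 9.14 at 8.73). Pax5+/-;Myd88+/- leukemia 2, with a list mean of 8.36, has Cd34 at 6.71. The list's genes (not drawn singly) differ there: Stab2, at 9.66, is above every Pax5+/- leukemia (8.16 to 8.90). Emcn, at 7.35, is below the 8.26 to 9.03 of all Pax5+/- leukemias but leukemia 2 (6.97), which has the lowest Cd34 of its group.

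Spn, the CD43 gene, was 8.45 to 9.77 (median 9.50) across Pax5+/-;Myd88+/- leukemias, 9.10 to 9.50 (median 9.19) across Pax5+/- leukemias and 8.64 to 8.97 in the sorted WT cells. It exceeded all WT samples in every Pax5+/- leukemia and in 5 of 6 Pax5+/-;Myd88+/- leukemias. The differences of 0.43 and 0.51 missed the threshold (adjusted p = 0.126 for Pax5+/- and 0.0613 for Pax5+/-;Myd88+/-). Over the 32 arrays Kit was the gene most like Spn (r = 0.89).

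Meis1 was lower in leukemia than in the sorted WT cells, by less than the 2-fold needed for a call. Against proB cells of the same genotype it was not lower, with changes of 0.25 in Pax5+/-;Myd88+/- and 0.34 in Pax5+/- leukemias, neither of which passed. It read 6.33, 6.83, 6.02, 6.18, 6.24 and 5.94 in the Pax5+/-;Myd88+/- leukemias, against 7.27, 6.99, 6.96 and 7.26 in the sorted WT cells, with no overlap (-0.86 ± 0.21, SE, adjusted p = 0.00448). Among Pax5+/- leukemias it read 6.35, 6.37, 6.13, 6.60, 7.32 and 6.27, and sample 5 exceeded every WT sample (-0.61 ± 0.21, adjusted p = 0.0412). That leukemia also had the highest mean of 6 megakaryocyte and platelet markers, 10.81. Hoxa9 moved little anywhere, with all 32 arrays between 6.38 and 7.05. It averaged 6.74 ± 0.22 in Pax5+/-;Myd88+/- leukemias, 6.54 ± 0.12 in Pax5+/- leukemias and 6.73 ± 0.16 in the sorted WT cells, and neither difference from the WT cells passed (adjusted p = 0.949 and 0.226).

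Lmo2 and Gata2, which share complexes in early progenitors, passed against the sorted WT cells in neither leukemia genotype. Lmo2 was 10.07 to 10.50 in the Pax5+/-;Myd88+/- leukemias, all above the 9.48 to 9.87 of the sorted WT cells (0.63 ± 0.24, SE, adjusted p = 0.0575). Among Pax5+/- leukemias it was 9.49, 10.49, 10.34, 10.70, 9.45 and 10.75, so that samples 1 and 5 fell within or below the WT range and the other 4 above it. Samples 1 and 5 were also the Pax5+/- leukemias with the highest Cd34. The sign differed between the genotypes, with r of Cd34 and Lmo2 at -0.73 within Pax5+/- and 0.73 within Pax5+/-;Myd88+/- leukemias. Over the 12 leukemias, with genotype means removed, the relation did not pass (r = -0.56, adjusted permutation p = 0.371). Gata2 stayed between 6.49 and 7.36 among Pax5+/-;Myd88+/- leukemias, 6.81 and 7.29 among Pax5+/- leukemias, and 6.56 and 6.76 among sorted WT samples. Its highest value, 7.36 in Pax5+/-;Myd88+/- leukemia 2, fell in the leukemia with the highest mean of 6 erythroid markers, 8.84, while the sorted WT cells had an erythroid mean of 8.18 to 8.58. After the genotype means were removed, the genes most like Gata2 over the 12 leukemias were Sptb (r = 0.96), the spectrin of red cells, Tmem273 (r = 0.96) and Car1 (r = 0.94), a red cell carbonic anhydrase.

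Erg and Myb, which early B cells transcribe, varied widely among the leukemias. Erg was 9.59 to 11.27 (median 10.93) across Pax5+/-;Myd88+/- leukemias, 8.97 to 10.77 (median 10.21) across Pax5+/- leukemias and 10.14 to 10.33 in the sorted WT cells, so that both groups of leukemias lay on either side of the WT samples. Myb read 11.15, 10.30, 11.14, 10.60, 11.20 and 11.93 in the Pax5+/- leukemias, against 12.37, 12.41, 12.41 and 12.33 in the sorted WT cells. No leukemia reached the WT range, and the mean fell by 1.33 on the log2 scale, to 39.9% of that of the WT cells (SE 0.29, adjusted p = 0.00347). Among Pax5+/-;Myd88+/- leukemias Myb read 11.40, 11.41, 11.45, 10.54, 11.49 and 12.16, again below all WT samples, by -0.97 ± 0.29 (adjusted p = 0.0168), just short of a 2-fold difference. Without leukemia 6, which had the highest Myb, the difference was -1.12 and Myb was called. The 3 leukemias with the lowest Myb, at 10.30, 10.54 and 10.60, were also those with the lowest B-lineage mean, at 8.72, 9.32 and 8.85, and those with the lowest Erg, at 9.66, 9.59 and 8.97. The part of the B-cell share in these values was not tested.

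Across the 12 leukemias the 36 pairs of members were compared after removal of the genotype means (permutation tests, 2-sided). Of these, 3 pairs reached an unadjusted p under 0.05 and none passed after adjustment. Meis1 and Gata2 went together (r = 0.83, permutation p = 0.00762, adjusted p = 0.274, rho = 0.66, p = 0.0225), but r was 0.30 without the 2 samples farthest from the median, so the relation rests on those samples. Erg and Myb (r = 0.65, permutation p = 0.0205, adjusted p = 0.369, rho = 0.55, p = 0.0678) and Kit and Spn (r = 0.68, permutation p = 0.0341, adjusted p = 0.371, rho = 0.56, p = 0.0603) weakened in the same way, to 0.37 and 0.14. Cd34 and Meis1 had r = 0.56 (permutation p = 0.0619, adjusted p = 0.371, rho = 0.60, p = 0.0427) over the 12 leukemias and r = 0.88 without 2 samples (adjusted permutation p = 0.0335). Against Pax5 and Myd88, 18 relations were computed, of which 2 reached an unadjusted p under 0.05 and none passed after adjustment. Both were of Myb, with r = 0.59 for Pax5 (permutation p = 0.0427, adjusted p = 0.338, rho = 0.61, p = 0.0406) and r = -0.57 for Myd88 (permutation p = 0.0495, adjusted p = 0.338, rho = -0.58, p = 0.0508). Without 2 samples r was 0.59 for Pax5 and -0.70 for Myd88.

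The next question was whether loss of 1 Pax5 allele, or of Myd88 in addition, changed the genes in proB cells of healthy mice. Meis1 was the member that separated the genotypes, and Kit, Cd34, Hoxa9, Gata2 and Myb passed in none of these comparisons. No member was called against WT in Pax5+/-, Pax5+/-;Myd88+/- or Pax5+/-;Myd88-/- proB cells, where 1.08%, 1.15% and 1.28% of all probesets were. By the adjusted p alone 2, 2 and 1 of the 9 passed, against 7.06%, 6.06% and 15.7% of all, and 4, 3 and 3 reached an unadjusted p under 0.05 in limma. Between Pax5+/-;Myd88+/- and Pax5+/- proB cells none was called (0.812% of all) and none passed the adjusted p alone (4.3% of all), with 1 member at an unadjusted p under 0.05 in limma. Between Pax5+/-;Myd88-/- and Pax5+/- proB cells none was called (0.981% of all) and 2 passed the adjusted p alone (11.5% of all), the same number as at an unadjusted p under 0.05. Between Pax5+/-;Myd88-/- and Pax5+/-;Myd88+/- proB cells 1 member was called (0.805% of all), and it alone passed the adjusted p (10.4% of all). In the 5 comparisons with no call in limma the methods' t-test also called none. These comparisons share samples, and their values are given side by side.

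Meis1 read 7.21, 6.96, 6.97 and 7.10 in Pax5+/-;Myd88-/- proB cells, 5.99, 6.06, 6.11 and 5.85 in Pax5+/-;Myd88+/-, 6.16, 6.04, 6.24 and 6.22 in Pax5+/-, and 6.90, 6.74, 6.93 and 6.76 in WT proB cells. The order was thus Myd88-/-, WT, Pax5+/- and Pax5+/-;Myd88+/-, and the last 2 of these overlapped. Relative to WT, Meis1 was lower by -0.67 ± 0.07 in Pax5+/- (adjusted p = 1.36e-05) and by -0.83 ± 0.07 in Pax5+/-;Myd88+/- cells (SE, adjusted p = 8.26e-07). In Pax5+/-;Myd88-/- cells it was 0.23 ± 0.07 higher than in WT (adjusted p = 0.048). The Myd88-/- cells exceeded the Pax5+/-;Myd88+/- cells by 1.06 ± 0.07, or 2.08-fold (adjusted p = 9.07e-08), and the Pax5+/- cells by 0.90 ± 0.07 (adjusted p = 5.65e-07). The 2 high groups differ in sex by Xist, as do the 2 low groups. Beside the stromal list, both of arrays 1 and 3 had more Meis1 than both of arrays 2 and 4 in WT cells, and the arrays interleaved in the other 3 genotypes. With this split as a block the Myd88-/- cells exceeded the Pax5+/-;Myd88+/- cells by 1.06 (adjusted p = 4.38e-08).

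**Figure D4:**
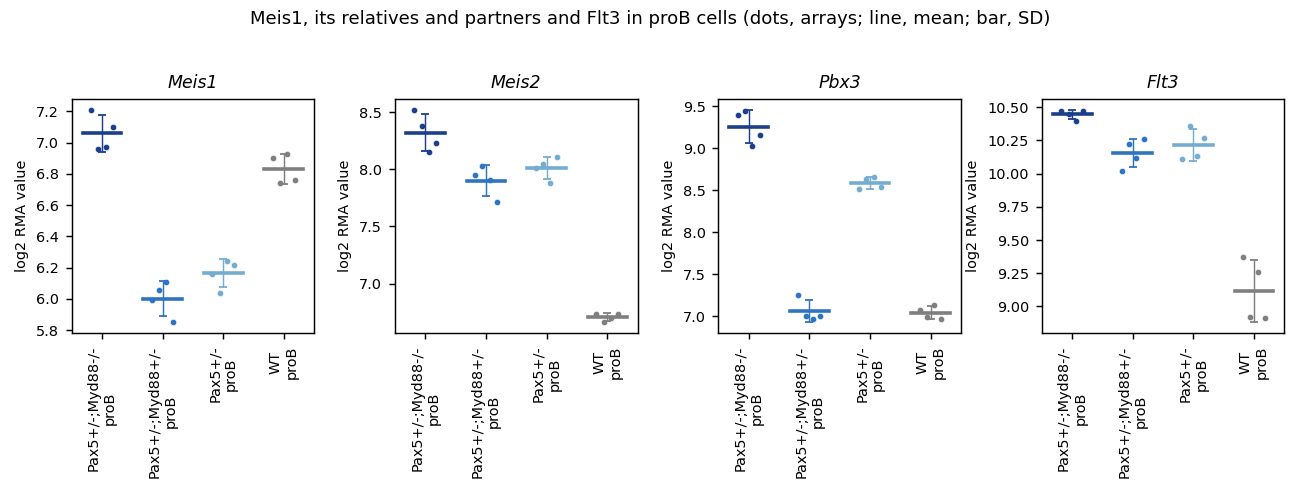
Log2 RMA value (vertical axes) of Meis1, Meis2, Pbx3 and Flt3 in the 4 proB genotypes (horizontal axes), with dots for arrays, a line for the mean and a bar for the SD. Meis1 is high in Pax5+/-;Myd88-/- and WT cells, Pbx3 in Pax5+/-;Myd88-/- and Pax5+/- cells, and Meis2 and Flt3 in all 3 genotypes that lack a Pax5 allele.

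Among proteins that bind these factors, Meis2 and Pbx3 were called between the proB genotypes. Meis2, a relative of Meis1, was 8.15 to 8.52 in Pax5+/-;Myd88-/-, 7.71 to 8.03 in Pax5+/-;Myd88+/-, 7.88 to 8.11 in Pax5+/- and 6.66 to 6.73 in WT proB cells, so it rose in all 3 mutant genotypes (by 1.61, 1.20 and 1.31, adjusted p = 9.85e-10, 4.17e-08 and 1.56e-08). Pbx3, a partner of Meis and Hox proteins, was 9.03 to 9.45 in Pax5+/-;Myd88-/-, 6.97 to 7.25 in Pax5+/-;Myd88+/-, 8.51 to 8.66 in Pax5+/- and 6.97 to 7.13 in WT cells. It was higher than in WT by 2.22 in Pax5+/-;Myd88-/- cells (adjusted p = 3.96e-11) and by 1.54 in Pax5+/- cells (adjusted p = 5.02e-09), and lower by -1.53 in Pax5+/-;Myd88+/- than in Pax5+/- cells (adjusted p = 5.39e-09). Flt3, the receptor of lymphoid and multipotent progenitors, is repressed by Pax5. It was 10.40 to 10.47 in Pax5+/-;Myd88-/-, 10.02 to 10.26 in Pax5+/-;Myd88+/-, 10.11 to 10.36 in Pax5+/- and 8.91 to 9.37 in WT cells, higher by 1.33, 1.04 and 1.10 (adjusted p = 8.02e-08, 1.18e-06 and 7.71e-07). Cd93, a receptor of progenitors and early B cells, rose by 1.21 in Pax5+/- against WT cells (adjusted p = 9.9e-05). It was 12.37 to 12.65 in Pax5+/-, 11.89 to 12.36 in Pax5+/-;Myd88+/- and 12.08 to 12.22 in Pax5+/-;Myd88-/- cells. WT arrays 1 and 3 had it at 11.69 and 11.67, and WT arrays 2 and 4 at 10.83 and 11.02. Mycn was higher by 1.15 in Pax5+/-;Myd88-/- (8.37 to 8.74) than in Pax5+/- cells (7.28 to 7.49, adjusted p = 0.00182). In WT cells Mycn was 7.35 and 7.36 in arrays 1 and 3 and 8.20 and 8.48 in arrays 2 and 4, so WT array 4 lay inside the Pax5+/-;Myd88-/- range.

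Kit itself read 10.70, 10.63, 10.59 and 10.61 in Pax5+/-;Myd88-/-, 10.73, 11.04, 10.77 and 11.11 in Pax5+/-;Myd88+/-, 10.37, 10.99, 10.43 and 10.85 in Pax5+/- and 11.13, 10.08, 11.16 and 10.12 in WT proB cells. The WT arrays form pairs about 1 unit apart that span the other genotypes, with arrays 1 and 3 high, whereas arrays 1 and 3 are the low ones in Pax5+/- and Pax5+/-;Myd88+/- cells. Against WT, Kit differed by 0.01 in Pax5+/-;Myd88-/- (95% CI -0.46 to 0.48), by 0.29 in Pax5+/-;Myd88+/- (95% CI -0.18 to 0.76) and by 0.04 in Pax5+/- cells (95% CI -0.43 to 0.51). Cd34 lay between 5.81 and 6.05 in all 16 proB arrays. Spn was lower by -0.35 in Pax5+/-;Myd88-/- than in Pax5+/- cells (9.50 to 9.68 in Myd88-/- against 9.75 to 10.07 in Pax5+/- cells, no overlap, adjusted p = 0.046). It was 9.61 to 9.98 in Pax5+/-;Myd88+/- and 9.57 to 9.95 in WT proB cells, ranges that overlap those of both other genotypes.

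Lmo2 was 9.73 to 9.98 in Pax5+/-;Myd88-/-, 9.88 to 10.26 in Pax5+/-;Myd88+/-, 9.80 to 9.99 in Pax5+/- and 9.10 to 9.91 in WT proB cells, and 1 difference passed, that of 0.59 between Pax5+/-;Myd88+/- and WT cells (adjusted p = 0.0315). Erg was 10.91 to 11.00 in Pax5+/-;Myd88-/-, 10.89 to 11.21 in Pax5+/-;Myd88+/-, 10.65 to 11.11 in Pax5+/- and 11.10 to 11.42 in WT cells, and again 1 difference passed, of -0.39 between Pax5+/- and WT cells (adjusted p = 0.0381). In both, the groups overlapped. Myb was 12.09 to 12.17 in Pax5+/-;Myd88-/-, 12.13 to 12.39 in Pax5+/-;Myd88+/-, 12.29 to 12.45 in Pax5+/- and 11.71 to 12.32 in WT proB cells, with no difference that passed. WT arrays 1 and 3 had Lmo2 at 9.91 and 9.81, WT arrays 2 and 4 at 9.10 and 9.13, and Myb split them likewise, at 12.32 and 12.32 against 11.72 and 11.71. Gata2 (6.44 to 6.80 over all proB arrays) and Hoxa9 (6.63 to 7.05) passed in no proB comparison.

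Leukemias were last set against proB cells of their own genotype, and WT proB cells against the sorted WT cells, across the 2 experiments as divided here. The methods, but not the labels, describe these proB cells as cultured. Cultured against fresh material, and any batch that the labels do not state, cannot be told apart from the groups here. In WT proB against sorted WT cells 2 of 9 members were called, Kit and Erg, both higher (9.94% of all probesets were called), and 3 passed the adjusted p alone (42.5% of all). Kit was 2.75 ± 0.44 (SE) higher, or 6.74-fold, with all 4 WT proB samples above all 4 sorted samples (adjusted p = 8.6e-06). Erg was 1.07 ± 0.30 higher (11.27 ± 0.16 in WT proB against 10.20 ± 0.09 in sorted cells, SD, n = 4 each, adjusted p = 0.00429), and Spn 0.92 ± 0.18 (adjusted p = 0.000101). The sorted fraction holds preB as well as proB cells. By group means Kit thus stood highest in the 4 proB genotypes, whose ranges overlap except for Pax5+/-;Myd88-/- below Pax5+/-;Myd88+/- cells, then in the Pax5+/-;Myd88+/- leukemias, the Pax5+/- leukemias and the sorted WT cells. The gene most like Kit over the 32 arrays was Kif17 (r = 0.93), which encodes a kinesin motor, the one most like Erg was Arpp21 (r = 0.91), and the one most like Myb was Gse1 (r = 0.93). These arrays share their cell types, and r is a description.

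In the Pax5+/- leukemias against Pax5+/- proB cells 3 of 9 members were called (8.47% of all probesets), and 7 passed the adjusted p alone (53.4% of all). Kit fell to 8.82 ± 0.39 in the leukemias, against 10.66 ± 0.31 in proB cells (-1.84 ± 0.40, SE, adjusted p = 0.000372). Cd34 rose to 8.29 ± 0.84 in the leukemias, against 5.98 ± 0.05 in proB cells (2.31 ± 0.25, adjusted p = 2.06e-08), and Myb fell to 11.05 ± 0.56 in the leukemias, against 12.39 ± 0.07 in proB cells (-1.33 ± 0.23, adjusted p = 2.04e-05). Spn (-0.66), Erg (-0.83) and Hoxa9 (-0.22) were lower and Gata2 (0.31) higher by smaller amounts that passed. In the Pax5+/-;Myd88+/- leukemias against proB cells of that genotype 1 of 9 was called (2.84% of all), and 2 passed the adjusted p alone (14.6% of all). Kit averaged 9.41 ± 1.27 in the leukemias and 10.91 ± 0.19 in proB cells (-1.50 ± 0.40, SE, adjusted p = 0.012), and leukemia 5, at 11.39, exceeded all proB samples. With only these 2 groups in the fit, the adjusted p was 0.157. Myb was lower by -0.85 ± 0.23 (adjusted p = 0.0118), and was called, at -1.0, without leukemia 6.

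The change from proB cells to leukemia was compared between the genotypes directly. For Cd34 it came to 0.45 for Pax5+/-;Myd88+/- and 2.31 for Pax5+/- mice, a difference of -1.86 ± 0.36 (SE, 95% CI -2.59 to -1.13, adjusted p = 0.000311). Cd34 was the 1 member of 9 called in this interaction, where 4.55% of all probesets were called and 21.8% passed the adjusted p alone. For Kit the changes were -1.50 and -1.84, and their difference of 0.34 did not pass (95% CI -0.82 to 1.51, adjusted p = 0.709). The same held for Myb, at -0.85 and -1.33 (difference 0.48, 95% CI -0.18 to 1.14).

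Of 42 measured further genes of stem and progenitor cells, 5 were called in the Pax5+/-;Myd88+/- leukemias against sorted WT cells, 3 higher and 2 lower, and 6 in the Pax5+/- leukemias, 5 higher and 1 lower, where 7.63% and 4.44% of all probesets were called. The medians over the list were 0.07 and 0.01, beside -0.01 and -0.03 over all probesets. Lmo4, a LIM-only relative of Lmo2, had the largest difference of the list, -2.73 in Pax5+/-;Myd88+/- and -2.09 in Pax5+/- leukemias (adjusted p = 4.47e-05 and 0.000964). WT proB cells were also below the sorted WT cells in Lmo4, by -3.06 (limma adjusted p = 4.98e-09). Its mean in the leukemias, 8.99 in Pax5+/-;Myd88+/- and 9.63 in Pax5+/-, was not below that of proB cells of the same genotype (8.76 and 8.67). Egfl7, a secreted protein of endothelium and progenitors, rose by 1.75 and 1.84 (adjusted p = 0.000581 and 0.000751), and Flt3 by 1.80 and 1.63 (adjusted p = 0.0253 and 0.0492). Angpt1, the ligand of the stem cell and endothelial receptor Tek, rose by 1.56 in the Pax5+/-;Myd88+/- leukemias (adjusted p = 0.00355), and Slamf1 by 1.70 in the Pax5+/- leukemias (adjusted p = 0.0307). Between the leukemia genotypes 2 of 42 were called, Adgrl4 (-1.35, adjusted p = 0.0197) and Esam (-1.07, adjusted p = 0.0022), both known from endothelium, a count near the background of 3.81%.

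Of 16 measured partners of the members' proteins, 2 were called in the Pax5+/-;Myd88+/- leukemias against sorted WT cells and 3 in the Pax5+/- leukemias, beside 7.63% and 4.44% of all probesets. Tcf3, the E protein that pairs with Tal1 and Lyl1 and drives B-cell fate, was lower in both, by -1.30 and -1.02 (adjusted p = 0.000433 and 0.00457). Cbfa2t3, a corepressor of the Tal1 and Gata complexes, was lower by -1.21 in the Pax5+/-;Myd88+/- leukemias (adjusted p = 0.00146). Ldb2, which binds LIM domains, was higher by 1.57 in the Pax5+/- leukemias (adjusted p = 0.000286). Meis2 was lower in both leukemias than in proB cells of the same genotype, at 5.72 ± 0.23 against 7.90 ± 0.14 in Pax5+/-;Myd88+/- (adjusted p = 5.51e-13) and 5.74 ± 0.32 against 8.01 ± 0.10 in Pax5+/- mice (SD, adjusted p = 2.89e-14).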

How the data were processed

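RNA of 32 samples was extracted with Trizol and hybridised to Affymetrix MoGene-1.0-st arrays. The authors made the deposited log2 values by gene-level RMA in the Transcriptome Analysis Console with mm10 annotation, and the sources used here do not state whether all arrays were normalized together. RMA evens out array-wide shifts and compresses dim probesets, so differences of low genes can be understated. No counts or depth exist for arrays, and the number of samples limits the precision. Of 28944 probesets, 21789 name 1 gene, 1621 several and 5534 none by GEO's platform annotation, and the series holds 19938 named genes.

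Group means were compared with limma 3.58.1 in R 4.3.3 over all probesets, with Benjamini-Hochberg adjustment. Comparisons within the leukemia experiment were fitted on its 16 arrays, those between proB genotypes on the 16 proB arrays, and those across experiments on all 32. The fitting was tested on simulated data. Correlations used permutation tests with 100000 resamples. The members, gene lists and tests were chosen with earlier results of these data known. The genes named are all 9 members, the genes most like them by Pearson's r, at most 4 called genes of each list per comparison, and Pax5 and Myd88. Alternatives were another set of arrays in the fit, centred array medians, a filter on dim probesets, limma-trend, a block of same-numbered replicates, the methods' t-test, no fold threshold, each replicate left out and, chosen after seeing the data, the pairs of proB arrays 1 and 3 and 2 and 4. Same-numbered arrays deviated together in 1 of the 12 comparisons, Pax5+/-;Myd88-/- against WT proB cells (r = 0.117 to 0.216 for the 4 numbers); the labels do not state a shared origin.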

Additional observations from a re-analysis of the deposited data

Results flagged for a closer look

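The change of Cd34 between leukemia and proB cells differed between the genotypes by -1.86 on the log2 scale (0.45 in Pax5+/-;Myd88+/- against 2.31 in Pax5+/- mice, limma adjusted p = 0.000311).

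Dixon's test of the sample farthest from its group was made in 63 groups of 4 or 6 arrays and picked out 4 arrays, where chance picks about 1 in 20. Gata2 was highest at 7.36 in Pax5+/-;Myd88+/- leukemia 2 and at 7.29 in Pax5+/- leukemia 5, each apart from the other 5 leukemias of its group. The first of these had the highest erythroid mean of all leukemias (8.84), and the second the highest megakaryocyte and platelet mean (10.81). Kit was lowest at 7.46 in sorted WT sample 4, where the other 3 lay between 8.0 and 8.02. Hoxa9 was lowest at 6.67 in Pax5+/- proB sample 2, against 6.78 to 6.80 in the others.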

How the results depend on the processing

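Direction was followed only for single-gene results called in the main fit or in an alternative that kept the fold threshold. None of these changed direction. Among single genes, 113 of 123 values kept their side of the threshold under settings that kept all arrays, and 149 of 156 with 1 replicate left out. Against sorted WT cells, the number of members called in the Pax5+/-;Myd88+/- leukemias (1, Kit) was 0 with only these 2 groups in the fit, 2 with array medians centred (Myb in addition), 0 by the methods' t-test with adjusted p, 3 with no fold threshold, and 0 to 2 with 1 replicate left out. Kit ranged from 1.15 to 1.91 over 19 alternatives (adjusted p 0.0021 to 0.112). Against proB cells of their own genotype (1, Kit) the number was 0 with only the 2 groups in the fit, 0 by the methods' t-test with unadjusted or adjusted p, 2 with no fold threshold, and 1 to 2 with 1 replicate left out, 2 without leukemia 6 (Myb in addition, -1.0). With the replicate block it was 2, Myb reaching -1.08. The block also put Erg past 2-fold in Pax5+/- leukemias against their proB cells (-1.06, 4 members called against 3), and in Pax5+/-;Myd88+/- leukemias against sorted WT cells it exchanged Kit (1.27, adjusted p = 0.0732) for Myb (-1.20). It changed no other call, and the numbers pair these samples by no stated origin. With no fold threshold the numbers were 2 in Pax5+/-, 2 in Pax5+/-;Myd88+/- and 1 in Pax5+/-;Myd88-/- against WT proB cells, 2 in Pax5+/-;Myd88-/- against Pax5+/- proB cells, and 7 in Pax5+/- leukemias against their proB cells. Of the pairs of members, 1 passed without the 2 samples farthest from the median, against 0 with all. The causes of these shifts were not tested, and where samples were left out their number was also smaller. Cd34 in the Pax5+/- leukemias against sorted WT cells stayed called in all 19 alternatives (1.90 to 2.33), and so did Myb (-1.56 to -1.18). Averaging WT proB arrays 1 and 3, and 2 and 4, or taking this split as a block, changed no number of called members. Each gene had 1 probeset, so averaging probesets changed nothing.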

Other observations

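Other marrow lineages differed between the groups beside the members. The mean of 9 granulocyte and monocyte precursor markers was 6.79 to 9.40 among Pax5+/-;Myd88+/- leukemias, 7.34 to 10.73 among Pax5+/- leukemias, 6.95 to 8.45 in the sorted WT cells and 6.35 to 6.64 in the proB cells. The mean of 6 megakaryocyte and platelet markers was 6.44 to 9.89 among Pax5+/-;Myd88+/- leukemias, 8.37 to 10.81 among Pax5+/- leukemias and 6.65 to 6.73 in the sorted WT cells, and 5 of the 6 were called higher in the Pax5+/- leukemias than in the WT cells. Of 6 NK cell markers, 5 were called lower in each leukemia genotype than in the sorted WT cells, whose mean was 8.62 to 9.50.

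Over the 12 leukemias, with genotype means removed, the genes most like Erg included Hes1 (r = 0.95), a Notch target, and those most like Meis1 were Prkcq (r = 0.95), Myct1 (r = 0.95) and Gata1 (r = 0.94), the erythroid and megakaryocyte GATA factor. Cd34 was most like Sema3a (r = 0.96), Hspg2 (r = 0.93), a basement membrane proteoglycan, and Pcdhb9 (r = 0.93). These r describe 12 arrays that share other cell types with the members.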
